A study of Mus musculus with 2 samples.

Results

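Of the 32285 genes in the deposited table, 8 were followed through the cell populations of the fetal mouse testis: *Lepr*, *Tacr3*, *Adgrb3*, *Tafa2*, *Nell1*, *Spon1*, *Tll1* and *Plcxd3*. They were picked by name, as the leading genes of presumed Leydig cell progenitors, from their RNA ratio between progenitor and Leydig nuclei in these same data, so that ratio is given here as a description only. The nuclei came from whole testes at E14.5 of mouse embryos that carried *Nr5a1-cre*, a transgene driving Cre in steroidogenic and Sertoli cells, together with a *Rosa-tdTomato* reporter. No other genotype or treatment was profiled. The 10x multiome assay gave 1 RNA library and 1 ATAC library (ATAC marks open chromatin by where a transposase cuts), both from the same nuclei, and all 9833 barcodes of the RNA table were also in the ATAC fragments. With 1 library per assay there was no replicate check, so no test was made, and every interval below is an exact 95% interval that covers counting error only. The number of embryos behind the library is not stated in what was read here.

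Fetal Leydig cells make the androgens of the male embryo and arise from mesenchymal cells of the testis interstitium, the tissue between the cords. The 8 genes encode cell surface receptors, secreted proteins and enzymes. *Lepr* encodes the leptin receptor, a cytokine receptor that signals through JAK2 and STAT3. *Tacr3* encodes the receptor of neurokinin B, and *Adgrb3* an adhesion G protein-coupled receptor that binds C1q-like proteins. *Tafa2* encodes a small secreted protein best known from the brain, *Nell1* a secreted protein that promotes bone formation, and *Spon1* F-spondin, a matrix protein with thrombospondin repeats. *Tll1* encodes a metalloprotease of the tolloid family, which cleaves chordin and procollagens, and *Plcxd3* a protein with a phospholipase C X domain.

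After filters 7198 nuclei remained, with a median of 7948 RNA molecules (UMIs) each, in 12 clusters made without the 8 genes and without the peaks near them. The largest was progenitor-like, with 2273 nuclei, and Leydig-like nuclei numbered 784. The progenitor markers *Pdgfra*, *Inhba*, *Adam23* and *Nr2f2* had their highest level in the progenitor-like cluster, while *Tcf21* and *Wnt5a* were highest in surface epithelium-like nuclei. All 6 Leydig markers were highest in the Leydig-like cluster, which also held the highest level of the adrenal markers *Mc2r* (64.3 CPM, counts-per-million of the cluster's UMIs), *Cyp11b1* (23.1 CPM) and *Cyp21a1* (12.5 CPM). A cluster of 1003 cycling interstitial nuclei was left unnamed, since contractile and progenitor markers scored about alike in it. In a finer clustering, 752 of its nuclei were progenitor-like and 247 contractile-like. Of the Leydig-like nuclei, 152 scored above the automatic threshold of Scrublet, a program that scores doublets, without being among the 470 nuclei removed.

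The progenitor-like level was above the Leydig-like one for all 8 genes, by 3.97-fold (*Tacr3*) to 8.79-fold (*Spon1*), and by 6.67-fold (*Tacr3*) to 103-fold (*Tll1*) without nuclei above the automatic doublet threshold or 50000 UMIs. The median log2 ratio was 2.66, against -0.02 over the 11401 genes with at least 100 UMIs in both clusters together, of which 12.2% were at least 2-fold higher with an interval above 1. As this contrast chose the genes, nothing is read from that difference. The label of leading progenitor genes held only in part once the other cell types were considered. Only 4 of them, *Lepr*, *Tacr3*, *Plcxd3* and *Tafa2*, had their highest level in progenitor-like nuclei. Of the 2273 progenitor-like nuclei, 811 were contractile-like in a finer clustering, where the contractile-like level over the pooled progenitor-like one was 1.10 for *Lepr* (interval 0.98 to 1.24) and 1.02 for *Tacr3* (0.97 to 1.08), both including 1. When doublets were removed at the automatic threshold these ratios were 1.22 (interval 1.08 to 1.39) and 1.07 (1.01 to 1.13). Under stricter minimums for nuclei they went the other way, at 0.33 (interval 0.24 to 0.45) and 0.57 (0.51 to 0.63). Clusters were made anew in each of these settings, so the contractile-like class was not the same set of nuclei. It held 47 *Lepr* UMIs under stricter minimums, against 399 in the finer clustering. *Spon1* was highest in pericyte-like, *Nell1* in supporting-like, *Adgrb3* in mesonephric mesenchyme-like and *Tll1* in endothelial-like nuclei. Over the 6889 genes with at least 100 UMIs and at least 50 CPM in their highest cluster, 3.53% had it in the progenitor-like cluster.

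**Figure D1:**
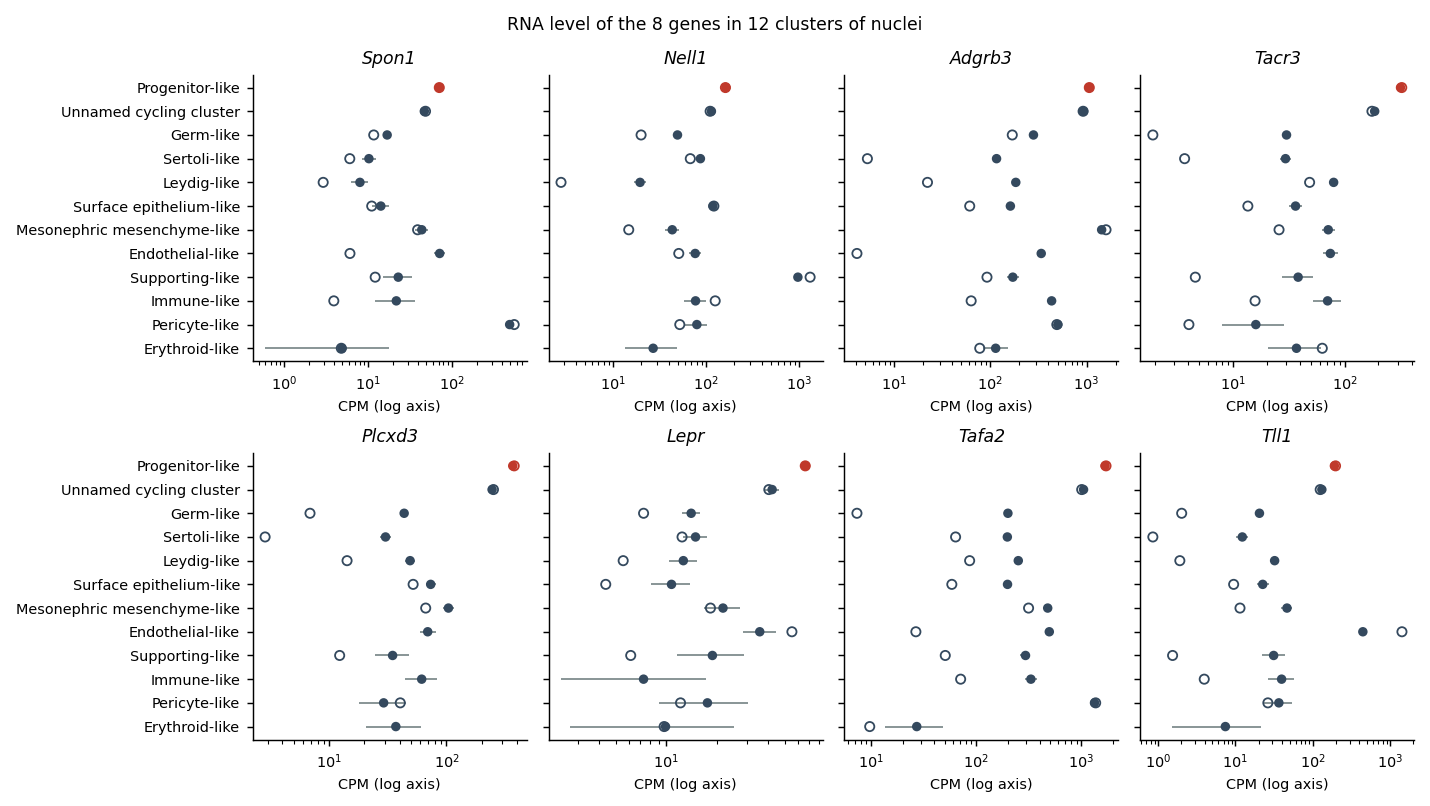
RNA level of each gene (CPM, log axis) in the 12 clusters. Filled points are all nuclei of a cluster with exact Poisson 95% intervals, red for progenitor-like, and open points are the nuclei left when those above 50000 UMIs or above the automatic doublet threshold are taken out (none is drawn where the level is then 0). *Spon1*, *Nell1*, *Adgrb3* and *Tll1* each have a cluster above the progenitor-like point, at 494, 978, 1435 and 445 CPM.

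*Lepr* was the least abundant of the receptors, and its order was led by interstitial nuclei. Its level was 66.5 CPM (62.4 to 70.9) in progenitor-like nuclei, 42.2 CPM in the cycling cluster and 35.7 CPM in endothelial-like nuclei, the last pair not differing beyond their counting error. Mesonephric mesenchyme-like nuclei were at 21.6 CPM, and the remaining 8 clusters lay between 7.32 and 18.7 CPM, where no neighbours in the order could be told apart. Without nuclei above the automatic doublet threshold or 50000 UMIs, endothelial-like nuclei rose to 55.3 CPM (36.4 to 80.4, from 27 UMIs), an interval that includes the progenitor-like 66.3 CPM. Leydig-like nuclei were at 12.6 CPM (10.3 to 15.2), 0.90 times the germ-like level of 14.0 CPM (interval of the ratio 0.71 to 1.12). After thinning to 2000 UMIs per nucleus, 10.8% of progenitor-like nuclei had a *Lepr* UMI, against 1.41% in Leydig-like nuclei. Germ-like nuclei, given here for comparison, had 1.95%, and their level fell from 14.0 to 7.32 CPM without the nuclei above the automatic doublet threshold or 50000 UMIs. Median depths before thinning were 5811, 9582 and 15522 UMIs, and thinning left out 49, 3 and 2 shallower nuclei. Without thinning, the 3 shares were 23.3%, 9.06% and 15.1%.

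Of the 59 peaks within 100 kb of the 8 gene starts, 34 had at least 20 fragments over the progenitor-like and Leydig-like clusters together, and the largest ratio among these lay in *Lepr*. A peak in an intron of *Lepr*, 6.2 kb after the annotated start (mm10, chr4:101723124-101724005), had 70 unique fragments in the progenitor-like cluster and 1 in the Leydig-like cluster, or 16.8 and 0.832 fragments-per-million (FPM) of the cluster's fragments at peaks (ratio 20.2, interval 3.52 to 811). The cycling cluster had 20 fragments (8.10 FPM), germ-like nuclei 12 (4.81 FPM) and Sertoli-like nuclei 3 (1.91 FPM). Progenitor-like nuclei were thus highest among the 7 clusters of at least 400 nuclei, and their interval of 13.1 to 21.3 did not meet that of any of the others. The central 300 bases of this peak are shown because it carries that difference (GRCm38/mm10, chr4:101723415-101723714, plus strand). Capitals mark every match, on either strand, to 4 motifs: AGGTCA, the half-site of many nuclear receptors, CAGCTG, an E-box of the kind TCF21 binds, and AGATAA and TGATAA, elements of the kind GATA factors bind.
Lepr intron peak: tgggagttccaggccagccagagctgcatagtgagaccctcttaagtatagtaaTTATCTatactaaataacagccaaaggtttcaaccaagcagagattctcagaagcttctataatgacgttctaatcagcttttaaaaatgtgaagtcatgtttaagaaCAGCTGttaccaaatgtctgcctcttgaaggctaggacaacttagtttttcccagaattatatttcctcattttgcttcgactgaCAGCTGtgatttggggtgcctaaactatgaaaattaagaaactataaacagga

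The window held 2 matches to CAGCTG and 1 to AGATAA. Of the central 300 bases of all 109183 peaks on the assembled chromosomes, 27.3% held CAGCTG at least once and 4.98% held 2 or more, so the match is a description of these letters and not of a bound site. The peak at the start of *Lepr* itself differed less, with 36 fragments in the progenitor-like cluster and 7 in the Leydig-like cluster (8.66 and 5.82 FPM, ratio 1.49, interval 0.65 to 3.96). The peak with the most fragments lay 69.9 kb upstream at the start of *Leprot*, whose product modulates leptin receptor traffic, and its 421 and 144 fragments gave a ratio of 0.85 (interval 0.70 to 1.03).

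**Figure D2:**
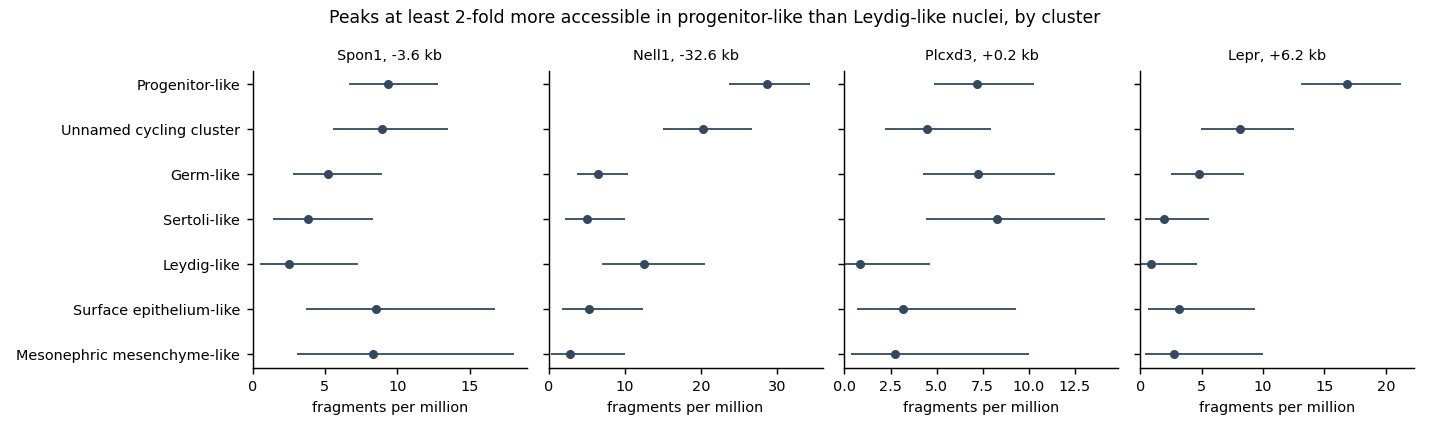
Accessibility in FPM (linear axis) for the 4 peaks that were at least 2-fold more accessible in progenitor-like than Leydig-like nuclei, in the 7 clusters of at least 400 nuclei, with exact Poisson 95% intervals. The *Lepr* intron peak reaches 16.8 in progenitor-like nuclei, above every other cluster, while the *Plcxd3* start peak is as high in germ-like (7.22) and Sertoli-like nuclei (8.28).

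*Tacr3* was the gene whose RNA fell least towards the Leydig-like cluster. Progenitor-like nuclei were at 316 CPM (306 to 325) and the cycling cluster at 185 CPM. Leydig-like nuclei came next at 79.6 CPM (73.7 to 85.7), not apart from endothelial-like nuclei at 74.3 CPM and above the germ-like 30.1 CPM by 2.64-fold (interval 2.36 to 2.95). After thinning, a *Tacr3* UMI was found in 36.0% of progenitor-like nuclei, 9.60% of Leydig-like nuclei and 2.57% of germ-like nuclei. Without the nuclei above the automatic doublet threshold its Leydig-like level was 48.5 CPM (43.0 to 54.5) and its germ-like level 1.92 CPM. The 60 endothelial-like nuclei then left had 0 *Tacr3* UMIs (0 to 7.55 CPM), so their level was below the Leydig-like one. The 33 erythroid-like nuclei left were at 63.0 CPM (33.5 to 108, from 13 UMIs), an interval that includes the Leydig-like level. The *Tacr3* start peak was the most accessible of its 5 peaks and had 54 and 14 fragments (ratio 1.12, interval 0.61 to 2.17). Neither of the 2 *Tacr3* peaks tested passed the 2-fold rule, and the other 3 had too few fragments. Among those 3 was a second peak within 1 kb of the start, with 14 and 5 fragments.

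*Adgrb3* marked mesenchyme more broadly. It was highest in mesonephric mesenchyme-like nuclei at 1435 CPM (1393 to 1477), 1.35 times the progenitor-like level of 1059 CPM (interval of the ratio 1.31 to 1.40), and the cycling cluster was at 929 CPM. In classes made from RNA alone or from chromatin alone, *Adgrb3* was instead highest in progenitor-like nuclei. The mesonephric mesenchyme-like class was larger there, at 911 and 1078 nuclei against 404. Its leading genes there included *Myocd*, also a leading gene of the contractile-like cluster in the finer clustering. Whether this accounts for the change was not tested. In the main clusters, Leydig-like nuclei were at 184 CPM, under the germ-like 280 CPM. The thinned share with a UMI was 59.1% in mesonephric mesenchyme-like, 46.2% in progenitor-like, 26.5% in germ-like and 9.86% in Leydig-like nuclei. The germ-like share stood far above that of Sertoli-like nuclei (5.05%). The peak at the start of *Adgrb3* is shared with the start of *Gm9884*. Among the 7 clusters of at least 400 nuclei, this peak was highest in germ-like nuclei, at 38.5 FPM (31.2 to 47.0). It was at 15.4 FPM in the progenitor-like cluster and 14.1 in the Leydig-like cluster.

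Among the secreted proteins, *Tafa2* was the most abundant. It stood at 1678 CPM in progenitor-like nuclei (1657 to 1699), followed by pericyte-like nuclei at 1333 CPM (1248 to 1422), 1.26-fold lower (interval 1.18 to 1.35), and by the cycling cluster at 1048 CPM. Leydig-like and germ-like nuclei were at 251 and 200 CPM, and their thinned shares with a UMI were 15.1% and 9.36%, against 63.0% of progenitor-like nuclei. None of its 4 tested peaks passed the 2-fold rule. Its start peak had 44 and 10 fragments (ratio 1.27, interval 0.63 to 2.83). The peak with the most fragments, 67.0 kb upstream at the start of *Usp15*, had 231 and 82.

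*Nell1* was highest in supporting-like nuclei, the *Pax8*-positive relatives of the Sertoli lineage. The 88 supporting-like nuclei held 978 CPM (921 to 1038), 5.95 times the progenitor-like 164 CPM (interval 5.54 to 6.40). Surface epithelium-like nuclei were at 119 CPM and Leydig-like nuclei lowest of the 12 clusters at 19.6 CPM, not apart from erythroid-like nuclei (27.1 CPM) and under the germ-like 49.6 CPM. The supporting-like cluster rested on *Pax8* (685 CPM) and *Pax2* (57.9 CPM), while *Tspan8*, also on its marker list, was at 0.891 CPM and *Emx2* was at 43.6 CPM, below its level in surface epithelium-like nuclei. The surface epithelium markers *Pdgfc* and *Podxl* had their highest level in the supporting-like cluster, above their 1125 and 243 CPM in surface epithelium-like nuclei. A UMI was seen in 60.2% of supporting-like, 16.4% of progenitor-like, 4.01% of germ-like and 2.30% of Leydig-like nuclei after thinning. The *Nell1* span also holds *4933405O20Rik* on the same strand and *Nell1os* on the other, so counts from the shared stretches are uncertain. Its most accessible peak, 32.6 kb upstream in an exon of the neighbour *Slc6a5* (chr7:49941847-49942678), had 119 fragments in the progenitor-like cluster and 15 in the Leydig-like cluster (28.6 and 12.5 FPM, ratio 2.29, interval 1.34 to 4.23). The cycling cluster had 20.2 FPM there, and the other 4 clusters of at least 400 nuclei lay between 2.76 and 6.42. The start of *Nell1* itself was at 5.29 FPM in the progenitor-like cluster and 4.99 in the Leydig-like cluster, and among the 7 clusters of at least 400 nuclei was highest in germ-like nuclei at 19.7. In supporting-like nuclei 4 fragments gave 20.9 FPM (5.70 to 53.5).

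*Spon1* was highest in pericyte-like nuclei. The 67 pericyte-like nuclei held 494 CPM (443 to 549), 6.95 times the progenitor-like 71.0 CPM (interval 6.13 to 7.87). Endothelial-like nuclei stood at 72.2 CPM, not apart from progenitor-like nuclei, but fell to 6.14 CPM among the 60 endothelial-like nuclei below the automatic doublet threshold and 50000 UMIs. The thinned share with a UMI was 47.8% in pericyte-like, 8.77% in progenitor-like, 2.78% in germ-like and 1.92% in Leydig-like nuclei. The *Spon1* start peak had 60 progenitor-like and 9 Leydig-like fragments (14.4 and 7.49 FPM, ratio 1.93, interval 0.95 to 4.42, which includes 1). Among the 7 clusters of at least 400 nuclei it was highest in surface epithelium-like nuclei, at 20.2 FPM. Of the 7 *Spon1* peaks tested, 1 passed the 2-fold rule. It lay 3.6 kb upstream of the *Spon1* start, in intergenic sequence. There the progenitor-like cluster had 39 fragments and the Leydig-like cluster 3 (9.38 and 2.50 FPM, ratio 3.76, interval 1.19 to 19.0). The cycling, surface epithelium-like and mesonephric mesenchyme-like clusters were near the progenitor-like value there, at 8.91, 8.49 and 8.29 FPM. This peak falls outside the rule that chose the other peaks described here, and was picked after its values were seen. Its centre (GRCm38/mm10, chr7:113762209-113762508, plus strand) is shown beside that of a *Tll1* peak that did not differ, 9.0 kb upstream of the *Tll1* start (chr8:64215105-64215404, plus strand), with the same motifs in capitals.
Spon1 upstream peak: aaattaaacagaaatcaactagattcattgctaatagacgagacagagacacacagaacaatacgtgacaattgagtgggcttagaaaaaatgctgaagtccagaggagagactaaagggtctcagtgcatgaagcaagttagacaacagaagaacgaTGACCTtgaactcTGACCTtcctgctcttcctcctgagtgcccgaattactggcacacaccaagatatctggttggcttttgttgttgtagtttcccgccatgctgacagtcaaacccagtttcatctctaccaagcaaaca
Tll1 upstream peak: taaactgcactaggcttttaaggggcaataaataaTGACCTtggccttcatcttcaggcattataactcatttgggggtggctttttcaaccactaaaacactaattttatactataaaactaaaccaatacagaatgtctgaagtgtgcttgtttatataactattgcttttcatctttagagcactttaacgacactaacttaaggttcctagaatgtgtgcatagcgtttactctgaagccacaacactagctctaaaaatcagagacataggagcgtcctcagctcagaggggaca

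The *Spon1* window held AGGTCA 2 times and the *Tll1* window 1 time, read on the minus strand as TGACCT. Over all peak centres, 22.5% held it at least once and 3.24% held 2 or more. Across the 59 peaks near the 8 genes the shares were close to those of all peaks for AGGTCA (18.6% against 22.5%), CAGCTG (30.5% against 27.3%) and AGATAA (18.6% against 17.3%), and TGATAA was in 18.6% against 12%.

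Of the enzymes, *Tll1* was highest in endothelial-like nuclei at 445 CPM (418 to 473), 2.33 times the progenitor-like 191 CPM (interval 2.17 to 2.51). The finer clustering placed this in 63 endothelial-like nuclei at 886 CPM, while the other 32 were at 44.3 CPM (interval of the ratio 15.2 to 26.8). The 35 endothelial-like nuclei above the automatic doublet threshold held 79.0% of the cluster's UMIs, and without them *Tll1* stood at 1425 CPM (1321 to 1535). Leydig-like nuclei were at 32.1 CPM, and the thinned share with a UMI was 28.7% in endothelial-like, 17.8% in progenitor-like, 2.18% in Leydig-like and 2.06% in germ-like nuclei. None of the 5 tested peaks near *Tll1* passed the 2-fold rule. The peak 9.0 kb upstream had 52 and 12 fragments (ratio 1.25, interval 0.66 to 2.58), at 12.5 FPM and 9.98 FPM. The cycling nuclei were at 15.0 FPM there, against 0 to 3.18 FPM in the other 4 clusters of at least 400 nuclei. At the start of *Tll1* the ratio was 0.69 (interval 0.37 to 1.36).

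*Plcxd3* was highest in the interstitial clusters. It stood at 367 CPM in progenitor-like nuclei (357 to 377) and 245 CPM in the cycling cluster, and no other cluster exceeded the mesonephric mesenchyme-like 104 CPM. Leydig-like nuclei were at 49.0 CPM and germ-like nuclei at 43.6 CPM, and the thinned shares with a UMI were 24.7% in progenitor-like, 4.12% in germ-like and 3.46% in Leydig-like nuclei. The peak at its start had 30 fragments in the progenitor-like cluster and 1 in the Leydig-like cluster (ratio 8.67, interval 1.44 to 354), and was as accessible in germ-like (7.22 FPM) and Sertoli-like nuclei (8.28 FPM), whose RNA was low. The peak with the most progenitor-like fragments, 26.2 kb upstream, had 32 and 6 (ratio 1.54, interval 0.64 to 4.51). The 250 bases before the start of *Plcxd3* (RefSeq, GRCm38.p6, chr15:4375241-4375490, plus strand) hold none of the 4 motifs and are shown as the sequence of that start.
Plcxd3 promoter: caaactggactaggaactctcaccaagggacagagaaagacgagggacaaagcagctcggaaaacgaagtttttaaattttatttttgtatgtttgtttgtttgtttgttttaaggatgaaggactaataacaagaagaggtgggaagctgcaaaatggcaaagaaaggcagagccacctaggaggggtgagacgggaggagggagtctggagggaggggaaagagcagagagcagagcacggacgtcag

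Of the 34 peaks tested, 4 (11.8%) were at least 2-fold more accessible in progenitor-like nuclei, against 11.6% of the 64148 peaks tested in the whole genome, and 0 were at least 2-fold less accessible, against 7.67%. With other classes or counts of cuts, 1 to 3 peaks were less accessible. The share of more accessible peaks was thus near the background in this setting. It was 23.5% against 16.8% with cuts and 19.0% against 10.4% in classes from chromatin alone. With no doublet removal it was 16.7% against 10.1%. It was under the background at the automatic doublet threshold (11.4% against 13.7%) and at a fold of 1.5 (11.8% against 12.9%). In the main setting the median log2 ratio was 0.28 near the 8 genes and 0.15 over all peaks tested. Of 34 peaks with at least 50 fragments over all nuclei, 8 (23.5%) were most accessible in progenitor-like nuclei among the 7 clusters of at least 400 nuclei, against 11.5% of all such peaks. The 8 starts had a median of 6 peaks within 100 kb, against 13 for the genes above.

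**Figure D3:**
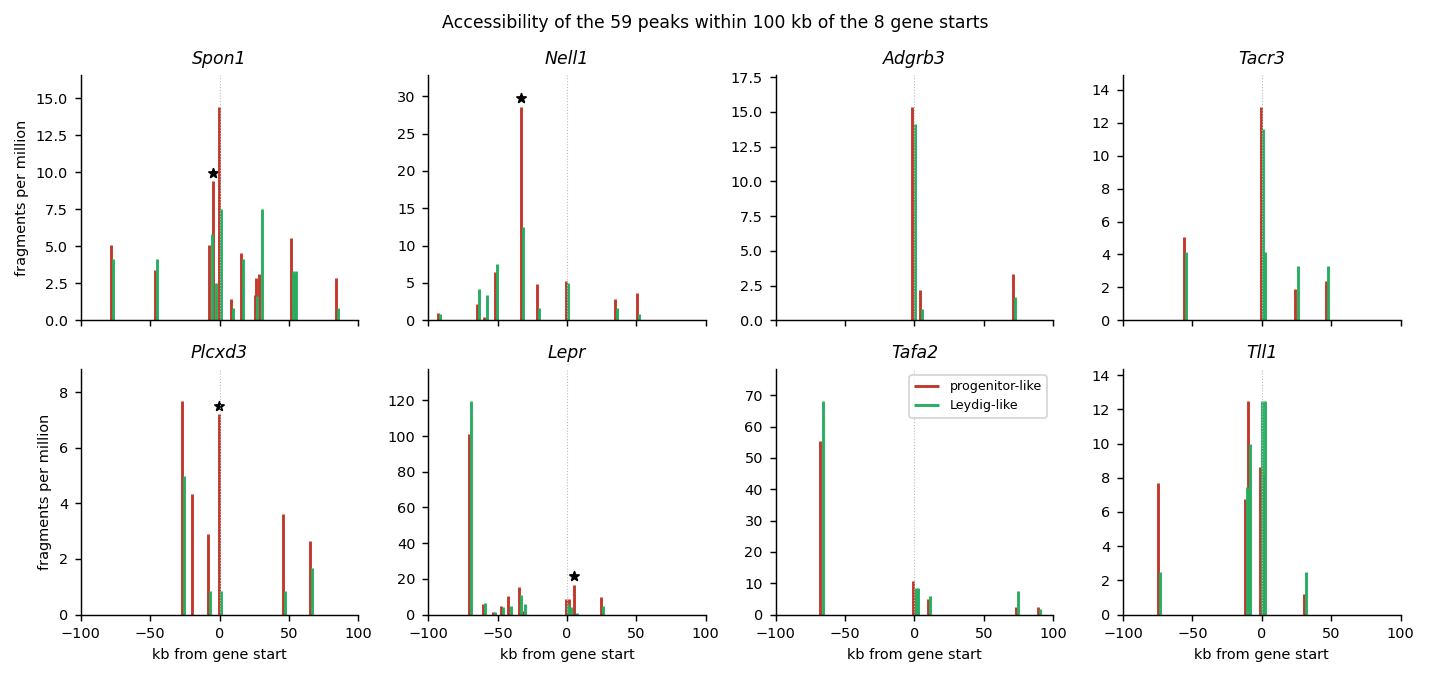
Accessibility of each of the 59 peaks (FPM, linear axis scaled per panel) by its distance from the gene start in kb, negative upstream. Bars stand side by side for progenitor-like (red) and Leydig-like nuclei (green), and stars mark the 4 peaks at least 2-fold more accessible in progenitor-like nuclei; the tall bars far upstream of *Lepr* and *Tafa2* are the starts of *Leprot* and *Usp15*.

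The Leydig-like levels rested largely on a minority of nuclei. The 152 Leydig-like nuclei above the automatic doublet threshold held 33.4% of the cluster's UMIs but 59.4% (*Tacr3*) to 96.0% (*Tll1*) of those of the 8 genes, which leaves 632 nuclei. *Tll1* went from 278 to 11 UMIs, and from 32.1 to 1.91 CPM (0.951 to 3.41). *Adgrb3* went from 184 to 22.2 CPM, *Nell1* from 19.6 to 2.77 CPM and *Spon1* from 8.08 to 2.95 CPM. *Tacr3* lost least, and was left at 48.5 CPM (43.0 to 54.5). Of its 689 Leydig-like UMIs before this removal, 139 lay in 43 nuclei that the finer clustering called progenitor-like. The other 741 Leydig-like nuclei, which the finer clustering also called Leydig-like, had *Tacr3* at 65.9 CPM (60.5 to 71.7). How many of the 43 are among the 632 nuclei was not examined. *Lepr* was left at 5.54 CPM, *Tafa2* at 86.5 CPM and *Plcxd3* at 14.2 CPM. Progenitor-like levels changed little, *Tafa2* for one from 1678 to 1715 CPM, so the ratios rose to between 6.67 for *Tacr3* (interval 5.91 to 7.55) and 103 for *Tll1* (interval 57.7 to 207). Germ-like nuclei fell likewise, from 200 to 7.32 CPM for *Tafa2* and from 280 to 169 CPM for *Adgrb3*. The clusters with the highest level of each gene stayed the same.

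A finer clustering split the interstitial nuclei further, into 1502 progenitor-like, 753 cycling progenitor-like and 1060 contractile-like nuclei, the last with *Myh11* and *Acta2* among their leading genes. *Tll1* separated them most, at 253, 159 and 40.6 CPM, which is 6.24-fold between progenitor-like and contractile-like nuclei (interval 5.50 to 7.10). *Tafa2* (3.53-fold), *Spon1* (3.43-fold) and *Plcxd3* (2.53-fold) also stood higher in progenitor-like nuclei. *Lepr* did not separate them, at 61.7 and 60.4 CPM (ratio 1.02, interval 0.90 to 1.16), and *Tacr3* (1.22-fold), *Adgrb3* (1.25-fold) and *Nell1* (1.43-fold) did so only slightly. This depended on the setting. In clusters made under stricter minimums, the contractile-like level over the progenitor-like one was 0.33 for *Lepr*, 0.57 for *Tacr3*, 0.30 for *Adgrb3* and 0.32 for *Nell1*. The contractile-like class there was another set of nuclei, with *Tafa2* at 179 CPM against 590 CPM in the finer clustering. The ratio of the less to the more cycling progenitor-like nuclei ran from 0.97 for *Adgrb3* (interval 0.943 to 0.999) to 1.79 for *Tacr3*.

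**Figure D4:**
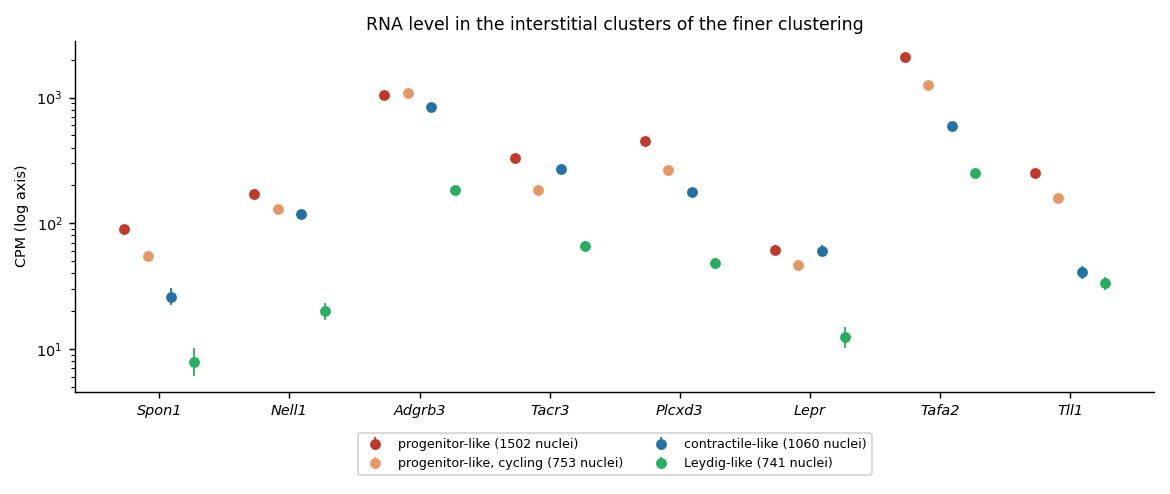
RNA level (CPM, log axis) of the 8 genes in 4 clusters of the finer clustering, with exact Poisson 95% intervals, which are mostly smaller than the points. *Lepr*, *Tacr3* and *Adgrb3* are close in progenitor-like and contractile-like nuclei of this clustering, whereas *Tll1* falls from 253 to 40.6 CPM, near the Leydig-like point. In clusters made anew under stricter minimums, with another set of contractile-like nuclei, *Lepr*, *Tacr3* and *Adgrb3* were not close.

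The 8 genes are long, with a median span of 239 kb against 54.5 kb over the genes tested, and RNA of nuclei is rich in intron reads, so levels between genes were compared per kb of span. In progenitor-like nuclei *Tafa2* was at 3.52 CPM per kb and *Tacr3* at 2.99, followed by *Plcxd3* (1.84), *Adgrb3* (1.39), *Tll1* (0.996), *Lepr* (0.679), *Spon1* (0.256) and *Nell1* (0.184). On this scale *Tacr3* stood above *Adgrb3*, the reverse of their order in CPM.

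Whether the same nuclei held the RNA of several of these genes was asked within the 2224 progenitor-like nuclei of at least 2000 UMIs, each thinned to 2000. Of the 28 pairs, 10 were found together more often than the product of their shares and 1 less often, with intervals that excluded the product. Among gene pairs with expected shares in the same range, 0.765% were above and 0.708% below, and the median ratio of observed to expected was 1.0, against 1.14 for the 28 pairs. The median expected share was 4.02% in those background pairs and 5.27% for the 28 pairs. The background pairs were not chosen by the progenitor-like over Leydig-like ratio, as the followed genes were. Whether other genes chosen by that ratio share nuclei as often was not tested. With the expected share taken within the finer clusters, 7 of the 28 pairs were above and 1 below, and no background was computed there. These shares describe nuclei of 1 library, which are not replicates.

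*Spon1* and *Nell1* shared nuclei most beyond expectation, in 57 nuclei (2.56%) against an expected 1.44% (ratio 1.79, interval 1.36 to 2.31). *Nell1* with *Tll1* followed at 1.36 (88 nuclei, interval 1.10 to 1.67) and *Plcxd3* with *Tll1* at 1.33 (130 nuclei, interval 1.12 to 1.57). With the expected share taken within the finer clusters, which keeps contractile-like nuclei apart, the interval of *Plcxd3* with *Tll1* was 0.97 to 1.36, which includes 1. *Tacr3* stood apart. It met *Nell1* in 103 nuclei, fewer than expected (ratio 0.79, interval 0.64 to 0.95), and *Spon1* in 57 (ratio 0.81, interval 0.62 to 1.05), and it was above expectation with none of the other 7 genes. *Lepr* likewise passed with none, its ratios running from 0.92 with *Tacr3* to 1.23 with *Spon1*. For both genes this rests on the thinning and doublet removal used, as *Lepr* passed with *Nell1* (1.26, interval 1.03 to 1.52) and *Adgrb3* (1.16, interval 1.02 to 1.31) when nuclei were thinned to a larger number of UMIs, and *Tacr3* passed with *Plcxd3* and *Tll1* at the automatic doublet threshold. *Tafa2* was above expectation with *Spon1*, *Nell1*, *Adgrb3*, *Plcxd3* and *Tll1*, by 1.13 to 1.21. Within the finer clusters its ratio fell to 1.06 with *Tll1* (interval 0.95 to 1.18) and 1.05 with *Spon1* (interval 0.89 to 1.23), both including 1. Of all 2224 nuclei, 203 (9.13%) had none of the 8 genes, against 5.36% expected if they were independent, and 24 (1.08%) had 6 of them, against 0.352%. That expectation pools the whole cluster, contractile-like nuclei included, and was not recomputed within the finer clusters.

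**Figure D5:**
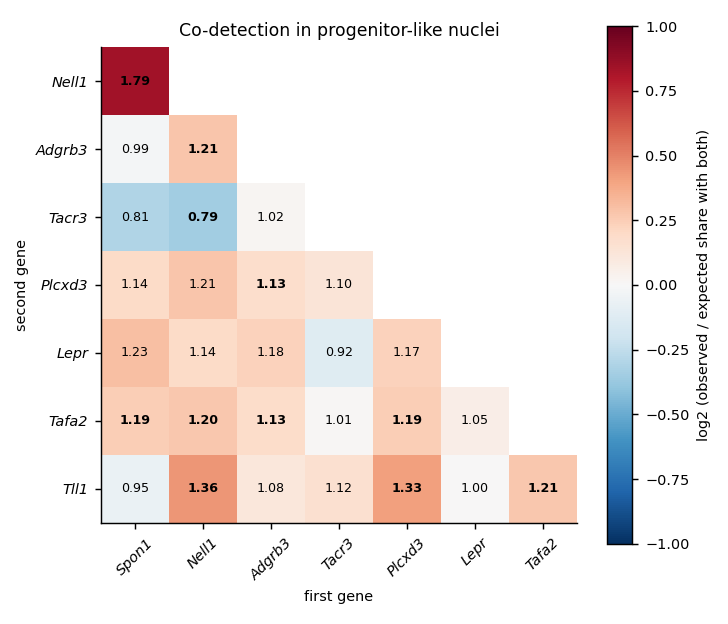
Observed over expected share of progenitor-like nuclei with a UMI of both genes, for the 28 pairs after thinning to 2000 UMIs. Colour gives the log2 of the printed ratio, and bold marks the 11 pairs whose interval excludes 1; *Spon1* with *Nell1* (1.79) is highest and *Tacr3* with *Nell1* (0.79) lowest.

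Over the 18 clusters of the finer clustering, the patterns of the 8 genes were far from uniform. Pearson's r of log2(CPM + 10) was 0.90 between *Tacr3* and *Plcxd3* and 0.81 between *Tacr3* and *Lepr*, but 0.09 between *Nell1* and *Adgrb3*. Among 7219 other genes, the patterns most like *Spon1* were those of *Scn7a*, a sodium channel gene (r = 0.97), and *Heyl*, a Notch target (r = 0.95), both highest in pericyte-like nuclei. *Nell1* was nearest to *Gm29521* (0.84) and *Htra1*, a secreted protease (0.82), both highest in supporting-like nuclei. *Adgrb3* was nearest to *Lama2*, a laminin chain (0.90), and *Kcnd3*, a potassium channel (0.90). *Tacr3* was nearest to *Arhgap20* (0.93) and *Rev3l* (0.91), *Plcxd3* to *Lrfn5* (0.94) and *Stc1*, a secreted glycoprotein (0.93), and *Tafa2* to *Spats2l* (0.94) and *Csmd3* (0.94). *Lepr* was nearest to *Col23a1*, a collagen (0.89), and *Arhgap20* (0.87), and *Tll1* to *Col23a1* (0.90) and *Rnf165* (0.85). The clusters come from 1 library, and these r values are a description over 18 points.

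Partners and relatives of the 8 genes were listed by family, 49 further genes in all, of which 32 had at least 20 UMIs over both clusters. In this contrast 14 of the 32 (43.8%) were at least 2-fold higher in progenitor-like nuclei and 5 (15.6%) at least 2-fold lower, against 13.4% and 12.8% of the 15102 genes with as many UMIs. Their median log2 ratio was 0.96, against -0.01 over all genes. The lists were drawn up with earlier results of these data known, so the count does not stand as independent evidence.

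Genes of leptin signalling were listed for *Lepr*. Of the 8 others, *Lep* had 0 UMIs in both clusters and none of the remaining 7 passed the rule for higher genes. *Jak2* was at 78.8 and 98.6 CPM and *Stat3* at 50.1 and 52.9 CPM in progenitor-like and Leydig-like nuclei, and *Ptpn1*, a phosphatase that dampens leptin signalling, was lower at 34.2 against 82.2 CPM (ratio 0.42, interval 0.37 to 0.47). *Tac2*, which encodes neurokinin B, the ligand of *Tacr3*, had 30 UMIs in the progenitor-like cluster and 3 in the Leydig-like cluster (2.08 and 0.346 CPM, ratio 6.0, interval 1.87 to 30.7), and the other 4 tachykinin genes had too few UMIs. The highest *Tac2* level was in erythroid-like nuclei, at 9.87 CPM (2.69 to 25.3). Of the relatives of *Adgrb3*, *Adgrb1* (ratio 6.15) and *Adgrb2* (5.12) were higher at 2.84 and 8.87 CPM, and *Elmo1*, which links these receptors to RAC signalling, was lower at 12.3 against 980 CPM, its highest level being in endothelial-like nuclei. *Adgrb2* had its highest level in surface epithelium-like nuclei, at 19.1 CPM (15.6 to 23.1).

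Among partners of the secreted proteins, *Nrxn3* and *Nrxn2*, which encode neurexins, cell surface proteins that bind TAFA proteins, were higher. *Nrxn3* was at 2665 CPM in progenitor-like nuclei and 1077 CPM in Leydig-like nuclei (ratio 2.47, interval 2.42 to 2.53) and *Nrxn2* at 15.7 and 3.58 CPM, while *Tafa5* was lower at 3.40 against 29.9 CPM. The highest level of *Nrxn3* was in progenitor-like nuclei. That of *Nrxn2* was in surface epithelium-like nuclei, at 19.1 CPM (15.6 to 23.1, which includes its progenitor-like level). *Robo2*, a guidance receptor, was at 8356 and 3650 CPM (ratio 2.29, interval 2.26 to 2.32), and *Nell2* was low in both at 4.36 and 1.85 CPM, its highest level being 124 CPM in surface epithelium-like nuclei. The thrombospondins *Thbs1* (ratio 3.61), *Thbs2* (2.49) and *Thbs3* (2.26) were higher and the reelin receptor *Lrp8* lower (0.15). Of the tolloid list, the substrates *Bgn*, biglycan (3.42, at 85.3 CPM), *Lox*, lysyl oxidase (2.71), and *Chrd*, chordin (8.20, from 41 and 3 UMIs), were higher. *Bgn* had its highest level in progenitor-like nuclei, but *Lox* and *Chrd* in mesonephric mesenchyme-like nuclei, at 50.8 and 4.45 CPM. *Plcxd2*, a relative of *Plcxd3*, was lower at 1.18 against 3.23 CPM (ratio 0.36, interval 0.19 to 0.69).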

How the data were processed

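E14.5 testes gave an RNA library and an ATAC library from shared nuclei. The authors ran Cell Ranger ARC 2.0.1 on the mm10 reference, per the submitters' processing notes, and deposited raw counts (UMIs per gene and cuts per peak, peaks called over all nuclei) and the unique fragments, before filters on quality, doublets or ambient RNA. Reads in introns are counted at that program's default settings, so long genes gain counts in nuclei. The table held 122049390 UMIs over 32285 genes and the list 58448458 fragments, 93.6% of them in its 9833 barcodes. Each unique fragment rested on 1.09 read pairs on average, so accessibility is limited by depth.

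The thresholds for nuclei were more than 500 genes, 250 to 25000 fragments at peaks with more than 20% of fragments there, and UMI shares below 10% for mitochondrial genes, 10% for ribosomal protein genes and 0.5% for haemoglobin genes. They left 7668. Scrublet in scanpy 1.11.5 scored doublets, and the highest 6.13% were removed. Its automatic threshold would have taken 18.0%, so doublets may remain. Whether the nuclei above that threshold are doublets was not tested. Clusters came from 30 principal components of 2000 variable genes and the peak components not following depth, joined by weighted nearest neighbours in Seurat 5.3.0 at a resolution of 0.3, or 0.6 for the finer clustering, with the 8 genes and their 59 peaks left out. Each cluster took the class whose markers, detected at 10 CPM or more, had the highest mean z score. It stayed unnamed when the lead was under 0.1 or another class led its 10 top genes, and this lead rule was set after the first names were seen. Class names were rebuilt here, so shares may differ from those of the study. No ambient RNA was removed.

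UMIs or unique fragments were summed per cluster and divided by the cluster total. Intervals are exact at 95% (Poisson for levels, conditional binomial for ratios, Clopper-Pearson for shares). The functions were tested on simulated data. The members, families, markers and motifs were chosen with earlier results of these data known. Described genes were all members, the 2 nearest patterns to each (over clusters of at least 30 nuclei), and list genes past 2-fold with at least 20 UMIs; *Lep*, *Jak2* and *Stat3* were named after their values were seen. Described peaks were those within 1 kb of a start, the largest ratio among those with at least 50 fragments, and the most fragments in progenitor-like nuclei. A peak upstream of *Spon1* was added after its values were seen. Peaks were annotated with GENCODE vM21, on the same build as the files. Of the 8 members, 7 had a RefSeq promoter entry. Some marker and list genes are not reported here.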

Additional observations from a re-analysis of the deposited data

How the results depend on the processing

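The progenitor-like over Leydig-like median log2 ratio of the 8 genes, 2.66, stayed positive under all 9 alternatives that gave a value but moved with the treatment of doublets: 4.73 at the automatic Scrublet threshold, 4.67 without nuclei above it or above 50000 UMIs, and 2.38 with no removal. It was 3.28 as the mean of CPM per nucleus, 2.20 under stricter minimums and 2.48 in classes from chromatin alone. The number of genes highest in progenitor-like nuclei, 4, became 2 at the automatic threshold and at resolution 0.6, where *Lepr* and *Tacr3* were highest in contractile-like nuclei (at 0.6 within counting error), and 7 in classes from chromatin alone, which have no pericyte-like or endothelial-like class. It was 5 in classes from RNA alone, with *Adgrb3* added. With the clusters of resolution 0.6 kept apart, an alternative added after seeing the data, it was 4 again. Pairs found together more often than expected, 10, became 19 without thinning and 6 in the less cycling progenitor-like cluster (added later), and were 7 to 13 under the other alternatives. *Spon1* with *Nell1* kept a ratio of 1.64 to 1.96, its interval above 1, under all 8 alternatives, whereas the interval of *Nell1* with *Tacr3* included 1 under 3 of them. More accessible peaks, 4, became 12 with cuts as counted in the matrix (23.5% of those tested, against 16.8% of all peaks), 2 at a minimum of 50 fragments and 8 in classes from chromatin alone (19.0% against 10.4%). Less accessible peaks, 0, became 3 with cuts, 2 in classes from RNA alone and 1 in classes from chromatin alone. The cause of these changes was not tested. Of the progenitor-like over Leydig-like ratios of single genes and peaks, and of the pairs, none called changed direction. The order of other clusters did change. *Adgrb3* was highest in mesonephric mesenchyme-like nuclei, but in progenitor-like nuclei in classes from RNA alone or chromatin alone. The contractile-like over progenitor-like ratio of *Lepr* went from 1.22 (1.08 to 1.39) at the automatic threshold to 0.33 (0.24 to 0.45) under stricter minimums. The contractile-like class was not the same set of nuclei in these settings. The planned fit in the progenitor-like cluster with lower cell cycle could not be run, as 1 cluster holds the class, and the median ratio with the germ-like level subtracted has no value, as Leydig-like levels of several genes then fall below 0. No paired analysis was possible because no result comes from a test. Depth limits the peaks: 25 of the 59 had under 20 fragments.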

Other observations

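Nuclei at the border between the Leydig-like and progenitor-like clusters had *Tacr3* above its progenitor-like level and the other 7 genes below theirs. The 43 nuclei that were Leydig-like at a resolution of 0.3 and progenitor-like at 0.6 had *Tacr3* at 436 CPM (139 UMIs, interval 367 to 515), above the progenitor-like 316 CPM. *Adgrb3* was at 220 CPM and *Tafa2* at 238 CPM, where the Leydig-like levels were 184 and 251 CPM. *Plcxd3* was at 75.3 CPM (24 UMIs) and *Lepr* at 18.8 CPM (6 UMIs), where they were 49.0 and 12.6 CPM. Without nuclei above the automatic doublet threshold the Leydig-like levels of these 4 genes were lower, at 22.2, 86.5, 14.2 and 5.54 CPM. *Tll1* had 0 UMIs, which allows up to 11.6 CPM, *Nell1* had 3 and *Spon1* 4. The steroidogenic genes *Nr5a1* (198 CPM) and *Cyp11a1* (194 CPM) lay between the progenitor-like (35.7 and 45.9 CPM) and the Leydig-like levels (384 and 1195 CPM), and *Nr2f2*, a transcription factor of interstitial progenitors, was at 354 CPM. These nuclei were picked by how 2 clusterings placed them, after the data were seen, and no explanation was tested.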
